A study of Mus musculus with 31 samples.

Results

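*MYCN*/*Alk* F1178L neuroblastomas that arose on 2 genetic backgrounds, 129B6F1 and 129S2, were compared by expression array. The comparison took 10 of the 31 tumors of the series, namely 6 tumors of 129B6F1 (numbers 1, 2, 4, 11, 37 and 38) and 4 of 129S2 (numbers 28, 29, 30 and 31). Members were chosen by the tumor number in the sample titles, and the background of each number was read from the study's list of tumors, because the strain label names both backgrounds for every tumor. The mice of all 10 tumors carried the *TH-MYCN* transgene, in which the promoter of tyrosine hydroxylase drives human *MYCN*, and the knock-in (KI) *Alk* F1178L allele. The 129B6F1 mice came from a cross of the *TH-MYCN* strain with C57Bl/6 mice that carried the KI allele, and the other mice had a background that was largely 129S2. A further F1178L tumor, number 36, had no listed background and was left out. The same contrast was read in the *MYCN*/*Alk* R1279Q tumors, with 3 tumors of 129B6F1 and 5 of 129S2. Background and age cannot be told apart in either mutation. In F1178L, the 129S2 mice were 36 to 44 days old at sacrifice, and the 129B6F1 mice were 64 days old or older. Both sexes were present on each side there. Counted by tumor, these were 2 males and 2 females for 129S2 and 3 of each for 129B6F1. In R1279Q too, every 129B6F1 mouse was older than every 129S2 mouse. All R1279Q tumors of 129B6F1 had copy number changes in the study's list, and those of 129S2 had none. Whether any tumors shared a mouse is not given, so p values measure only the spread between these tumors.

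Neuroblastoma is a tumor of the sympathetic lineage, whose cells pass from dividing neuroblasts to neurons that carry neurofilaments, vesicles and synaptic proteins. *Alk* and *Ret* encode receptor tyrosine kinases of these neuroblasts, *Phox2a* a transcription factor of noradrenergic neurons, and *Th* and *Dbh* enzymes of noradrenaline synthesis. MYCN is a transcription factor that binds E-boxes and drives growth and cell division.

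Promoters of 3 genes that the results turn on are shown to give their sequence context, *Pclaf*, which leads the genes that were higher in 129B6F1, and *Ache* and *Prph*, which were lower. Each is the stretch of 250 bases that ends just before the gene start in RefSeq (GRCm38.p6). Capitals mark CACGTG, the core E-box, and TTTNGCGC, a match to sites of the E2F factors of S phase, on either strand.
*Pclaf*, chr9:65890073-65890322, plus strand: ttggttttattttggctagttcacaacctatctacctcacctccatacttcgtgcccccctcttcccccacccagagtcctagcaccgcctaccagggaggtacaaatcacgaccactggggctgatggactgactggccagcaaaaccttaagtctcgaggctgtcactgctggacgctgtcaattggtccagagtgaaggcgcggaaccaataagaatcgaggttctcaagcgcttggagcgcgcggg
*Ache*, chr5:137288004-137288253, plus strand: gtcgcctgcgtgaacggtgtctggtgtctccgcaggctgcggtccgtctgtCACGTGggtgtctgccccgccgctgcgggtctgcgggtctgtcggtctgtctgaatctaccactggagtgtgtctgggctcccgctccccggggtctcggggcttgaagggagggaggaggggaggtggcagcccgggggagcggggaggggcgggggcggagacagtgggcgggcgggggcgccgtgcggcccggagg
*Prph*, chr15:99054924-99055173, plus strand: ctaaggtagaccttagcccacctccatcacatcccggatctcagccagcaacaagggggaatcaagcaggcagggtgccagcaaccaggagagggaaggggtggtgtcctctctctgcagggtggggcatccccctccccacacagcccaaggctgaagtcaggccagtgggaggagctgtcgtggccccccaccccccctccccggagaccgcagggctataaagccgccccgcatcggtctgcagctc
The window of *Ache* held 1 E-box, and those of *Pclaf* and *Prph* held neither motif. Of other genes called higher, *Mcm8* and *H2az1* held CACGTG, *Mcm6* held TTTNGCGC, and *Nuf2* and *Jmjd7* held neither. Among the 7211 tested genes with a promoter in the table, 10.1% held CACGTG and 2.52% held TTTNGCGC. The shares were 8.97% and 3.85% in the 78 genes called higher in 129B6F1, and 8.2% and 1.64% in the 122 genes called lower.

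Before the results, the arrays were set against the study's list. *Eif2s3y* and *Uty*, on the Y chromosome, split the 10 tumors into the listed males and females. The listed copy number changes, all in 129B6F1 tumors, did not all sit on the array of the same number. The median shift of a chromosome's genes in tumor 38 was 0.35 on chromosome 3 (listed as gained) and -0.40, -0.25 and -0.31 on chromosomes 5, 15 and 16 (listed as lost, 15 in part). The gain of chromosome 6 and the loss of 13 listed for tumor 2 went with shifts of -0.05 and 0.02 in tumor 2, against 0.22 and -0.21 in tumor 1. The gain of chromosome 11 listed for tumor 1 went with 0.18 in tumor 1 and 0.24 in tumor 4. In the 129S2 tumors, with no listed change, no chromosome shifted by more than 0.07. Whether numbers 1, 2 and 4 name the same tumors in both sources was not tested, and all 3 are listed as 129B6F1.

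**Figure D1:**
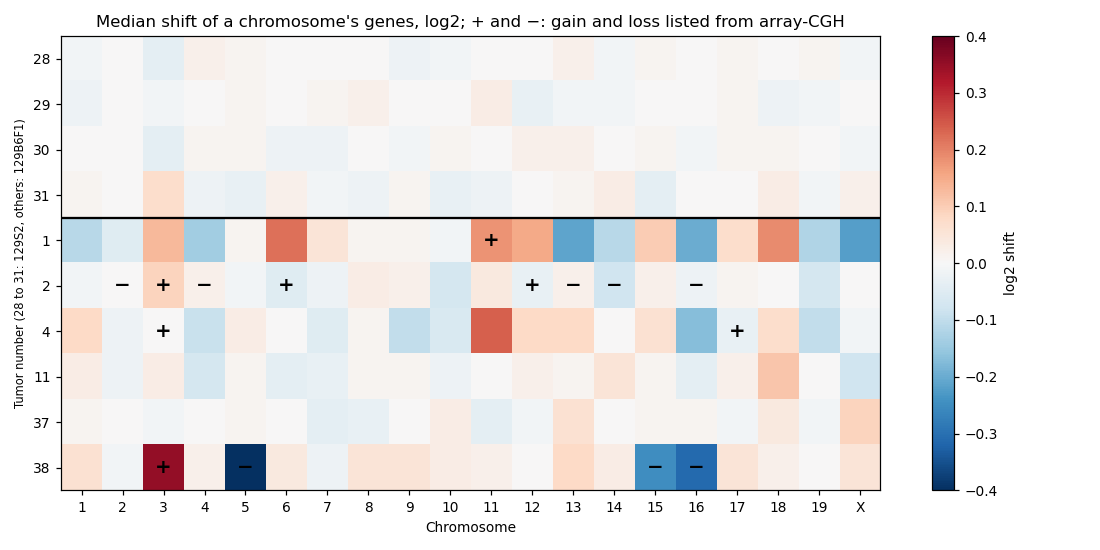
Median log2 shift of the tested genes of each chromosome (columns) in each tumor (rows) against the 129S2 mean, centred on the tumor's median over all rows, with + and - marking the gains and losses listed for that tumor number. Tumor 38 shifts where changes are listed, between -0.40 and 0.35, while the largest shifts of tumors 1 and 4 lie partly on chromosomes listed for other numbers.

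Markers of other cells also differed in single tumors. The neutrophil gene *S100a8* was at log2 11.67 in tumor 2 and 7.57 in tumor 4, and at most 3.95 in the other 8. *Alas2*, an enzyme of heme synthesis in red cell precursors, was at 9.73 and 9.29 in the same tumors and at most 2.36 elsewhere. Without tumors 2 and 4, a setting chosen after the values were seen, 71 rows were called in place of the 259 given below. Tumor 31 had the highest levels of the fat gene *Adipoq* (12.27) and of the Schwann genes *Mbp* (7.37) and *Egfl8* (7.10). No row of the T cell, B cell, adrenal cortex or kidney lists was tested, and the highest level in these lists was 2.98, for *Umod*.

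In F1178L tumors, the genes that were lower in 129B6F1 than in 129S2 included *Prph*, *Pclo* and *Phox2a*, and those that were higher were led by the replication factor *Pclaf*. Of 9192 rows above log2 4 in at least 4 of the 10 tumors, 259 passed limma's test at an adjusted p of 0.05 (2.82%), 94 higher in 129B6F1 (1.02%) and 165 lower (1.8%). Of these, 66 rose and 115 fell by at least 1 on the log2 scale, which is 2-fold. With equal array medians the split was 88 higher and 87 lower. With age added to limma's model the count went from 259 to 0, and the rows with an unadjusted p below 0.05 from 2236 to 503. The methods' test, without age, called 84. The 2 groups did not overlap for 247 of the 259 called rows, and for 814 of all rows (8.86%). The count was not stable. It ranged from 26 without tumor 28 of 129S2 to 789 without tumor 37 of 129B6F1, and was 50 without tumor 31, 73 without 29, 132 without 30, 100 without 11, 117 without 2, 149 without 1, 237 without 4 and 263 without 38. Of the 259 rows, 26 were called whichever tumor was left out, among them *Prph*, *Pclo*, *Ache*, *Cbln4*, *Pclaf*, *Jmjd7* and *Rps6*. Signs held for all 259 in every one of these, which says little, since the rows were chosen by their difference in the same tumors.

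Tumor 37, the youngest of 129B6F1 at 64 days and without a listed copy number change, lay nearest to the 129S2 tumors. On the first principal component (33.2% of the variance), the 129S2 tumors were at 24.1 to 44.5, tumor 37 at 10.3 and the other 129B6F1 tumors at -54.0 to -6.3. The order did not follow age or listed changes throughout. Tumor 38, the oldest and with listed changes, was next at -6.3, while tumor 11, with none, was at -26.5. Why tumor 37 lay nearest was not tested. Among the 165 genes called lower, tumor 37 was the 129B6F1 tumor closest to the 129S2 mean for 71 (43%), and for 41 (43.6%) of the 94 called higher, against 28.2% of all rows. The 129B6F1 tumors also varied more among themselves. Pearson's r across rows was 0.881 to 0.948 between pairs of 129B6F1 tumors and 0.95 to 0.981 between pairs of 129S2 tumors, a correlation over genes that share the array.

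The gene lists below were chosen with earlier results of these data known. Of 20 tested genes of the neuronal cytoskeleton and axon, 4 were called lower in 129B6F1 (1.8% of all rows were) and none higher. An unadjusted p below 0.05 was found for 12 of them and for 24.3% of all rows. The median log2 difference of the list was -0.65, against -0.02 over all rows. *Prph* encodes peripherin, a neurofilament-like protein found in neurons outside the brain. It was at 12.76, 12.43, 12.06 and 12.68 in the 129S2 tumors and at 8.88, 9.21 and 10.57 (lowest, median and highest) in 129B6F1. The groups did not overlap, and the difference was -3.11 ± 0.31 (SE, adjusted p = 0.00198). *Sncg*, which encodes γ-synuclein, was at 10.04, 9.90, 9.0 and 10.77 in 129S2 and at 4.98, 6.63 and 8.48 in 129B6F1, a difference of -3.21 ± 0.57 (adjusted p = 0.022). Its highest 129B6F1 value was that of tumor 37. *Gap43*, a growth cone protein, fell by 1.16 and *Mapt*, the microtubule protein tau, by 1.04 (adjusted p = 0.0309 and 0.0427). The tau groups overlapped, since tumor 37 was at 9.57 and tumor 30 at 9.48. *Nefl* and *Nefm*, the abundant neurofilaments, were not called (-0.36 and -0.23), nor was *Map1b* (-1.28, adjusted p = 0.0596).

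Of 16 tested genes of synapse and vesicle release, 4 were called lower (1.8% of all rows were) and none higher. All 16 had a difference below 0 (median -0.86), as had 52.3% of all rows. *Pclo*, the active zone scaffold piccolo, was at 9.02, 9.26, 8.56 and 9.05 in 129S2 and at 5.91, 6.71 and 7.04 in 129B6F1. The difference was -2.41 ± 0.24 (adjusted p = 0.00198), with a gap between the groups. *Syn1* and *Syn2*, the vesicle proteins synapsin 1 and 2, each differed by -1.60 (adjusted p = 0.022 and 0.0427). *Syt1*, the calcium sensor of release, was at 5.76 to 6.16 in 129S2 and at 2.43 to 5.49 in 129B6F1, and fell by 1.69 or more on the log2 scale once values under log2 4 are set to 4 (adjusted p = 0.0446). Among members that were not called, the vesicle protein *Syp* differed by -0.91 and the SNARE gene *Snap25* by -0.58. With single tumors left out, the called members ranged from 1 to 9 for the cytoskeleton list and from 1 to 8 for the synapse list, the most without tumor 37. Without tumors 28, 29 or 31, 1 member was left in each list.

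**Figure D2:**
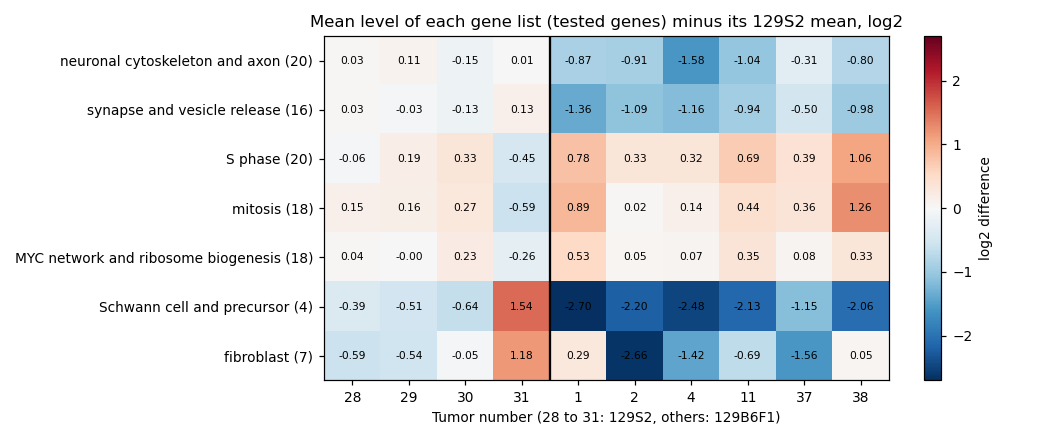
Mean log2 level of the tested genes of 7 lists (rows, number of genes in brackets) in each tumor (columns), minus the 129S2 mean. Both neuronal lists lie below 0 in all 6 tumors of 129B6F1, least in tumor 37 (-0.31 and -0.50), and the S phase list above 0 in all 6 (0.32 to 1.06), though tumor 30 of 129S2 was at 0.33.

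The mean of the Schwann list was also lower in all 6 tumors of 129B6F1, while fibroblast genes did not follow the neuronal lists tumor by tumor. Of the 4 tested Schwann genes, none was called, and all 4 had a lower mean in 129B6F1 (median -1.53). In R1279Q the median of the list was 0.61, in the other direction. Their mean level was 7.38 to 9.56 in 129S2 and 5.32 to 6.87 in 129B6F1. *Fabp7*, a fatty acid binding protein of glia and neural progenitors, was at 9.33, 9.78, 8.85 and 11.79 in 129S2 and at 2.39, 5.55 and 9.63 in 129B6F1 (-4.56, adjusted p = 0.0775). *Mbp* was at 7.37 in tumor 31 and at 4.22 to 4.68 in the other tumors. The defining genes *Sox10* and *S100b* stayed below log2 4 in all 10 tumors. None of the 7 tested fibroblast genes was called (median -1.15, mean levels of 7.21 to 8.98 and 5.14 to 8.09). Against the 129S2 mean, the fibroblast list was at 0.29 in tumor 1 and 0.05 in tumor 38, and at -1.56 in tumor 37, where the neuronal lists were least lowered. The part of Schwann cells in the neuronal differences was not tested. In bulk tumors, fewer cells of a type and less RNA per cell cannot be told apart.

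The 12 largest falls among called genes with a group mean of at least log2 6 included further genes of neurons. *Cbln4*, a secreted organizer of synapses of the cerebellin family, was at 8.18, 4.63, 7.76 and 7.36 in 129S2 and at 2.28, 2.38 and 3.11 in 129B6F1. It fell by 2.98 or more (adjusted p = 0.00743), and no tumor of 129B6F1 reached log2 4. *Kcnd2*, an A-type potassium channel, was at 7.89 to 8.39 in 129S2 and at 2.53, 3.74 and 5.86 in 129B6F1, and fell by 3.55 or more (adjusted p = 0.0156). *Npy2r*, a receptor of neuropeptide Y, fell by 3.29 or more and *Lgi1*, a secreted protein of synapses, fell by 2.80 or more (adjusted p = 0.0308 and 0.013). *Slitrk1*, a transmembrane protein of neurites, fell by 2.20 or more, and *Fxyd7*, a regulator of the sodium pump, fell by 3.37 (adjusted p = 0.0485 and 0.0318). *Itih5*, a heavy chain of the inter-α-trypsin inhibitor family, fell by 3.94, and *Crabp1*, which binds retinoic acid, fell by 3.21 (adjusted p = 0.0446 and 0.0401). The rest were *Sncg*, *Nwd2*, which fell by 2.73 or more, *Sostdc1*, a secreted BMP and Wnt antagonist, which fell by 2.77 or more, and *Fam89a*, which fell by 2.24 or more. *Nwd2*, *Itih5* and *Slitrk1* were the 3 of these whose groups overlapped. In each of them tumor 37 was the 129B6F1 tumor with the highest value, at 4.24, 8.20 and 6.37. Leaving out a single tumor ended the call for *Itih5* and *Slitrk1* in 9 of 10 cases, with adjusted p up to 0.146 and 0.141.

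**Figure D3:**
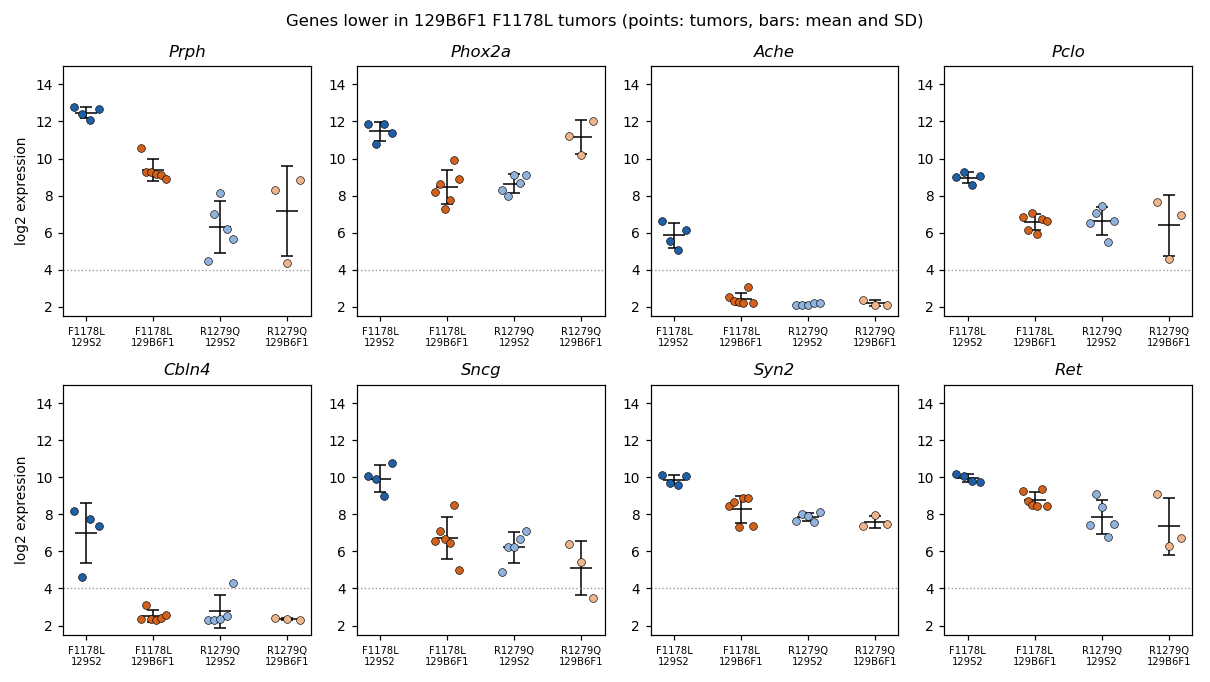
Log2 expression of 8 genes called lower in 129B6F1 F1178L tumors, for each tumor of 4 groups (mutation and background), with mean and SD as bars and log2 4 as a dotted line. *Prph*, *Ache* and *Pclo* are separated in F1178L with a gap, while in R1279Q the same backgrounds overlap, and *Phox2a* runs the other way there.

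*Phox2a* was the one called sympathoadrenal transcription factor of 13 tested. It was at 11.87, 10.78, 11.86 and 11.38 in 129S2 and at 7.29, 8.42 and 9.94 in 129B6F1, so that all 6 lay below all 4. The difference was -3.01 ± 0.46 (adjusted p = 0.0123, and 0.0669 without tumor 28). Others on the list did not pass, such as *Ebf1* (-1.58), *Insm1* (0.53), *Isl1* (0.22) and *Gata3* (-0.70). In R1279Q tumors the backgrounds stood the other way, with *Phox2a* at 8.32, 7.98, 9.14, 8.70 and 9.11 in 129S2 and at 11.21, 10.19 and 12.03 in 129B6F1 (2.49, adjusted p = 0.0381). The test of the difference between both effects gave -5.50 (adjusted p = 0.0016).

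*Ache*, acetylcholinesterase, was at 6.64, 5.54, 5.08 and 6.15 in the 129S2 tumors of F1178L and at 2.20, 2.28 and 3.06 in 129B6F1. It was thus above log2 4 in 129S2 alone among these tumors, and fell by 1.85 or more in 129B6F1 (adjusted p = 0.00106). In R1279Q it stayed between 2.09 and 2.40 in all 8 tumors, below log2 4, so that no background difference could be measured there. The fitted interaction of -3.49 (adjusted p = 0.000294) thus rests on the F1178L side, which gives only the bound above. Of cholinergic genes looked at after this value was seen, the vesicular transporter *Slc18a3* was at 6.10, 1.94, 2.63 and 4.84 in 129S2 and at most 1.99 in 129B6F1, and the choline transporter *Slc5a7* was at most 2.32 in all 10. *Prima1*, the membrane anchor of acetylcholinesterase, was at 7.03 to 7.72 in 129S2 and at 6.84 to 8.66 in 129B6F1, so that the groups overlapped.

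In all, 13 rows passed the test of the difference between F1178L and R1279Q (0.141% of those tested), 12 with the more negative background difference in F1178L. Besides *Ache* and *Phox2a*, they held *Crip2*, a LIM domain protein (-2.22, adjusted p = 0.0235), *Cd9*, a tetraspanin (-4.60, adjusted p = 0.0235), *Itga6*, a laminin receptor subunit (-3.94), *Anxa5* (-2.59), *Fam89a* (-3.61), *Tmtc1* (-3.12), *Olfr78* (-3.59), *Esyt1* (-2.02), *Ostm1* (-2.05) and *Atrnl1* (-1.98). The row with the opposite sign was *Thg1l*, a guanylyltransferase of histidine tRNA (3.22). Rows were tested by their level in the F1178L tumors alone. Genes above log2 4 only in R1279Q tumors could not enter, which limits what the split of signs says. For *Ache*, *Fam89a*, *Olfr78* and *Thg1l* at least 1 group had a mean under log2 4, so these are fitted values of uncertain size. *Cd9* was not called within F1178L, where it was at 11.44 to 12.79 in 129S2 and at 9.04, 9.84 and 11.66 in 129B6F1 (-1.96, adjusted p = 0.0657).

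Genes higher in 129B6F1 were led by *Pclaf*, a partner of the replication clamp PCNA. It was at 3.44, 3.17, 3.96 and 3.19 in 129S2, all below log2 4, and at 8.76, 8.98 and 11.34 in 129B6F1, at least 5.32 higher (adjusted p = 0.000938). In R1279Q, 1 of 3 tumors of 129B6F1 was high, at 9.57, and the others were at 3.63 and 4.40. In the *MYCN* tumors *Pclaf* ran from 2.90 to 9.66, with a median of 5.30. Whether its probes match the alleles of both strains equally was not tested. *Mcm8*, a helicase of recombination repair, was at 4.87, 5.14, 5.62 and 4.05 in 129S2 and at 6.27, 7.07 and 7.88 in 129B6F1 (2.16 ± 0.34, adjusted p = 0.0149). *Nuf2*, of the kinetochore complex Ndc80, rose by 2.02 (adjusted p = 0.0275) and *Gldc*, of the glycine cleavage system, by 2.59 (adjusted p = 0.0308). *Nxf3*, of the nuclear RNA export factor family, rose by 3.19 (adjusted p = 0.0275), *Wfdc17*, a gene of activated macrophages, by 2.58 (adjusted p = 0.0131) and *Cetn4*, a centrin, by 2.11 (adjusted p = 0.00743). *AI662270* and *Zc3h12c*, a CCCH zinc finger gene, rose by 2.13 and 1.80. The groups of all these genes did not overlap, though for *Gldc* tumors 30 and 4 were at 6.85 and 6.86.

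The S phase list gave 1 member called higher of 20, against 1.02% of all rows, and the mitosis list gave none of 18. Higher values in 129B6F1 were found for 18 and 17 members (medians of 0.58 and 0.54), as for 47.7% of all rows. The called member, *Mcm6*, a subunit of the replicative helicase, was at 10.26, 10.32, 11.17 and 9.90 in 129S2 and at 11.18, 11.57 and 12.15 in 129B6F1. The groups barely cleared each other, and the difference of 1.20 ± 0.28 had an adjusted p of 0.0496, which rose above 0.05 without any 1 of 8 tumors and reached 0.159. The licensing factor *Cdt1* (1.02, adjusted p = 0.0512), *Gins2* (1.24, adjusted p = 0.0513) and the mitotic activator *Cdc20* (0.77, adjusted p = 0.0783) did not pass. Of the 18 genes of the MYC network and ribosome biogenesis, none passed (median 0.32). *Mycn* itself, read by mouse probes while the transgene is human, was at 8.86 to 9.64 in 129S2 and at 7.15 to 9.68 in 129B6F1 (-0.56, adjusted p = 0.416).

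**Figure D4:**
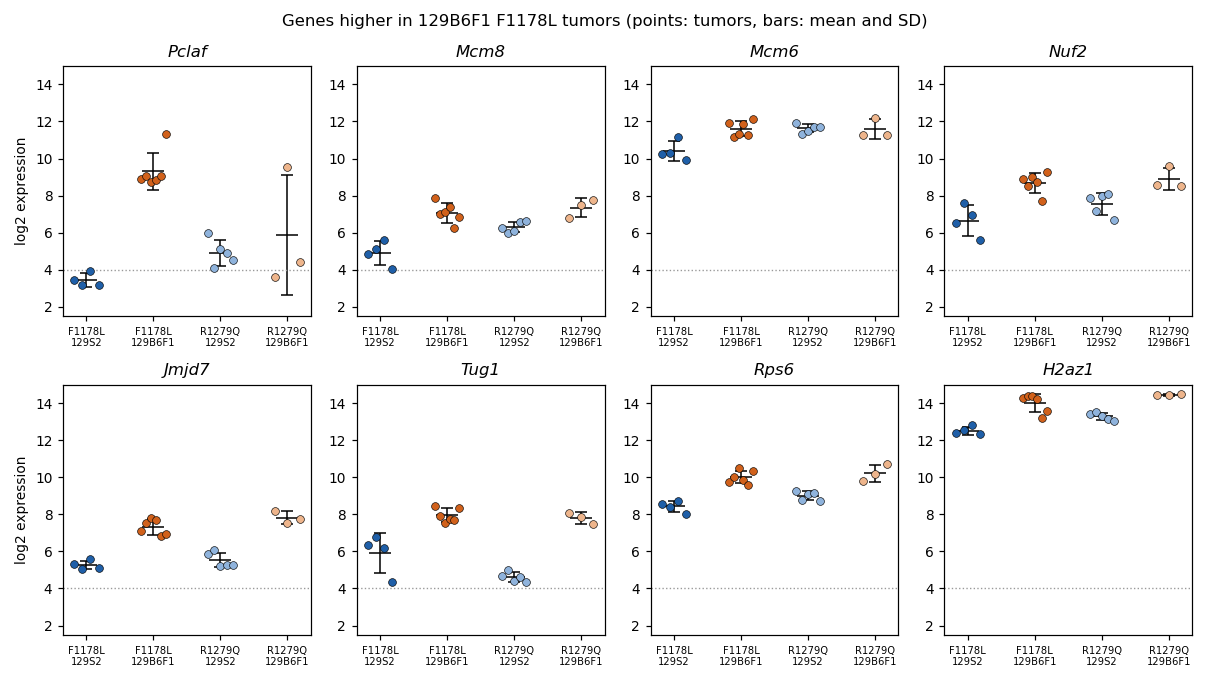
Log2 expression of 8 genes called higher in 129B6F1 F1178L tumors, for each tumor of 4 groups (mutation and background), with mean and SD as bars and log2 4 as a dotted line. *Jmjd7*, *Tug1*, *Rps6* and *H2az1* stand apart between backgrounds in both mutations. *Mcm8* and *Nuf2* also do not overlap in R1279Q, though they were not called there, while *Pclaf* and *Mcm6* are apart in F1178L alone.

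Some genes passed in both mutations. In R1279Q tumors 51 rows were called (0.555%), 26 higher and 25 lower in 129B6F1. Of these, 9 were called in the same direction in F1178L. That is 17.6% of the R1279Q calls, while 2.82% of all rows were called in F1178L. It is 3.47% of the F1178L calls, while 0.555% of all rows were called in R1279Q. All 9 were higher in 129B6F1. *Jmjd7*, a hydroxylase of the JmjC family, was at 5.33, 5.03, 5.57 and 5.13 in 129S2 and at 6.85, 7.31 and 7.82 in 129B6F1 (2.05 ± 0.22, adjusted p = 0.00364), and differed by 2.29 in R1279Q (adjusted p = 0.00107). The long noncoding RNA *Tug1* differed by 2.04 and 3.19 (adjusted p = 0.0339 and 0.00119) and the ribosomal protein gene *Rps6* by 1.59 and 1.22 (adjusted p = 0.00743 and 0.0337). *H2az1*, a histone variant, differed by 1.49 and 1.17 (adjusted p = 0.0195 and 0.0386). The zinc finger gene *Zfp939* was at 3.10, 2.67, 2.67 and 6.40 in 129S2 and at 6.74 to 8.21 in 129B6F1, so that tumor 31 lay close to the other group. It was at least 2.87 higher in F1178L (adjusted p = 0.022) and at least 3.32 higher in R1279Q (adjusted p = 0.0125). The remaining 4 were *Pnpt1* and *Exosc9*, both of RNA decay, *Pop4*, of ribonuclease P, and *Hps1*, of lysosome-related organelle biogenesis (1.08 to 1.48 in F1178L). The 129B6F1 mice had a C57Bl/6 parent, and whether the array's probes match the alleles of both strains equally was not tested. This limits what these 9 differences, and all other calls between the backgrounds, say of RNA levels. The 129B6F1 mice were also the older ones in both mutations, so background and age cannot be told apart for these 9 genes. Sex was uneven between the R1279Q backgrounds too. With sex in the model only 7 rows were called in R1279Q, so not all 9 genes stayed called in both mutations.

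**Figure D5:**
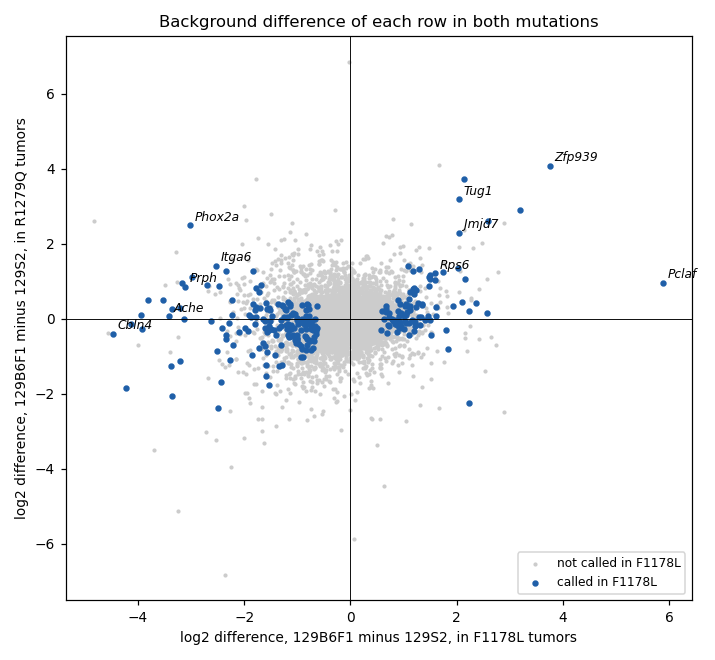
Log2 difference of 129B6F1 minus 129S2 for each tested row in F1178L (horizontal axis) and R1279Q (vertical axis), with rows called in F1178L in blue. *Jmjd7*, *Tug1* and *Zfp939* lie at the upper right and *Phox2a* at the upper left. On the vertical axis, the median was 0.16 for rows called higher in F1178L and -0.16 for rows called lower.

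For the rows called in F1178L, the median effect in R1279Q was small. The median was 0.16 there for those called higher (1.17 in F1178L) and -0.16 for those called lower (-1.24). The rows were chosen by their F1178L difference, which can enlarge the F1178L medians. Single genes differed more in R1279Q, such as *Nxf3* (2.90), *Gldc* (2.62) and *Sncg* (-1.12), though none of these was called there. Others differed little, such as *Wfdc17* (0.16) and *Pclo* (-0.24). The sign was the same for 62.8% of the rows called higher and 65.5% of those called lower, against 55.6% of all rows. Neither synapse nor cytoskeleton list had a called member in R1279Q, where their medians were -0.16 and -0.44. In R1279Q all 5 tumors of 129S2 were male, and 2 of the 3 tumors of 129B6F1 were female. With sex in the model the R1279Q count fell to 7.

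*Ret* was the one called gene of the receptor list, where 5 were tested. It was at 10.19, 10.06, 9.82 and 9.74 in 129S2 and at 8.46, 8.60 and 9.37 in 129B6F1, with no overlap (-1.16 ± 0.22, adjusted p = 0.0276). The call ended without any 1 of 6 tumors (adjusted p up to 0.115) and with equal array medians. It also ended with no filter, with the methods' test, with age in the model and without tumors 2 and 4. The same held with the 129B6F1 tumors that have no listed copy number change, and when the spread was shared over 18 or 31 tumors. Among other settings, the call stayed with sex as a covariate and with array weights. *Alk* itself was at 9.93 to 10.39 in 129S2 and at 7.93, 9.46 and 10.01 in 129B6F1 and was not called (-0.76, adjusted p = 0.216). *Vip*, vasoactive intestinal peptide, was at 13.33, 13.19, 13.09 and 14.70 in 129S2 and spread from 2.49 to 13.64 in 129B6F1 (median 9.11). The mean difference of -4.82 did not pass (adjusted p = 0.119). *Vgf*, a granin-like precursor, differed by -0.47 and did not pass (adjusted p = 0.716).

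None of the 10 tested genes of catecholamine synthesis, transport and breakdown was called. *Th* differed by 0.38 (adjusted p = 0.215), *Dbh* by -0.72 (adjusted p = 0.27) and the vesicular monoamine transporter *Slc18a2* by -0.32 (adjusted p = 0.691). Of 17 genes of neuropeptides and their processing, *Pcsk1n*, an inhibitor of prohormone convertase 1, was called (-1.35, adjusted p = 0.0176). Of 5 interferon genes, *Irf9*, of the ISGF3 complex, was called lower, at 5.86 to 6.40 in 129S2 and at 4.35 to 5.56 in 129B6F1 (-1.40, adjusted p = 0.02). No member was called in the lists of ERK targets, immediate early genes, Hox genes, MHC class I, hypoxia and glycolysis, p53 targets, sterol synthesis or genes known to differ between the parental strains, with 3 to 12 tested in each. None was called among macrophage (9 tested), endothelial and mural (6), fat (2) or muscle (1) genes.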

How the data were processed

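RNA of 31 tumors was hybridized by the authors to Affymetrix mouse genome arrays, 1 per tumor. The log2 values deposited by the authors were normalized by GCRMA, whose background step uses the probe's base content, on Brainarray probe sets. Versions are not given in the sources used here. Of 17306 rows, 16464 had 1 gene symbol. Values ran from 1.31 to 15.46 and array medians from 4.22 to 4.66. Arrays give no read depth, so the number of tumors limits the precision. limma 3.58.1 (R 4.3.3) compared both backgrounds, two-sided, with Benjamini-Hochberg adjustment over 9192 rows. R1279Q and the interaction came from 4 groups in 18 tumors, which share the F1178L samples, on the rows chosen by their level in the F1178L tumors. A group with a mean under log2 4 has only a bound there. Its values were raised to 4 where lower, and the difference is given as "at least" or "or more". The model was tested on simulated data. Named genes are the 12 largest rises and 12 largest falls among calls with a mean of at least log2 6, *Ret*, *Vgf*, *Vip*, *Th*, *Dbh*, *Slc18a2*, *Mycn* and *Alk*, up to 4 called members of each list, up to 5 each way called in both mutations and the 4 of lowest interaction p. Others were named as list members, or after their values were seen. Members and lists were chosen with earlier results of these data known. Alternatives were other filters, normalizations, tests, covariates, weights and tumors.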

Additional observations from a re-analysis of the deposited data

Results flagged for a closer look

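A single tumor stood far from the others of its background in 12 of the 96 groups of named genes that were examined (48 genes, 2 backgrounds), where chance gives about 1 in 20. In 129S2 these were *Zfp939* in tumor 31 (6.40), *Vip* in tumor 31 (14.70) and *Syn1* in tumor 30 (6.76). In 129B6F1, tumor 37 stood alone above the others in *Nwd2* (4.24), *Lgi1* (5.52), *Sostdc1* (5.87) and *Mapt* (9.57). The others were *Pclaf* in tumor 38 (11.34), *Zc3h12c* in tumor 4 (8.15), *Cbln4* in tumor 2 (3.11, below log2 4), *Alk* in tumor 4 (7.93) and *Prph* in tumor 1 (10.57).

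The background difference itself differed between F1178L and R1279Q, by the interaction test, for 13 rows. The values, F1178L minus R1279Q, were -3.49 for *Ache*, -5.50 for *Phox2a*, -4.60 for *Cd9*, -2.22 for *Crip2*, -2.02 for *Esyt1*, -3.12 for *Tmtc1*, -3.61 for *Fam89a*, -2.59 for *Anxa5*, 3.22 for *Thg1l*, -3.94 for *Itga6*, -2.05 for *Ostm1*, -3.59 for *Olfr78* and -1.98 for *Atrnl1*. For *Ache*, *Fam89a*, *Olfr78* and *Thg1l* at least 1 of the 4 groups lay under log2 4, and *Ache* in all R1279Q tumors, so the size of these values is uncertain. For *Phox2a*, above log2 4 in every group, the adjusted p stayed at or below 0.0106 under each of the 21 other settings of this test. These left out single tumors or used sex as a covariate, equal array medians or no filter. Age and the tumors without listed copy number changes were not tried for the interaction. Within F1178L, the call of *Phox2a* ended with each of these.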

How the results depend on the processing

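Of the 259 called rows, all kept their sign under each alternative that measured them, except 1 with age as a covariate. The rows were chosen by their difference in these same tumors, so kept signs say little of stability. The number of calls moved widely. It was 118 with no filter on low values (45 higher and 73 lower in 129B6F1), 84 with the methods' Student test after Benjamini-Hochberg adjustment (34 and 50), 168 with sex (62 and 106) and 0 with age (0 and 0) as a covariate. It was 654 when the spread was shared over 18 tumors (295 and 359), 873 over all 31 (410 and 463) and 1033 with array weights (368 and 665). It was 9 with the 129B6F1 tumors that have no listed copy number change (5 and 4), 74 on the chromosomes with none (28 and 46, of 3401 rows) and 71 without tumors 2 and 4, chosen after seeing the data (20 and 51). Equal array medians gave 175 (88 and 87) and moved the median of all rows from -0.02 to 0.07. Leaving out 1 tumor gave 26 to 789 calls, 10 to 304 higher and 16 to 485 lower. The cause of these moves was not tested, beyond the fewer tumors or rows that some settings hold.

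In R1279Q the count was 7 with sex as a covariate and 13 to 192 without single tumors, and the interaction count was 2 to 72. The log2 differences that changed sign were those of *Slitrk1* (0.28), *Vgf* (1.62) and *Slc18a2* (0.36) with age, and *Slc18a2* (0.066) in tumors without listed copy number changes. Without single tumors, *Slc18a2* ran from -0.55 to 0.014 and *Vgf* from -0.93 to 0.020. Of these, *Slitrk1* alone was called. Of 40 named called genes, 10 were called whichever tumor was left out. No paired analysis was possible because the tumor numbers name single tumors and none is shared between the groups. Signal over background limits the rows with a group below log2 4. Differences within F1178L are given there as bounds, while the interactions of *Ache*, *Fam89a*, *Olfr78* and *Thg1l* are fitted values.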

Other observations

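F1178L tumor 36, which has no listed background and entered no comparison, was at 9.38 for *Pclaf*, 7.07 for *Zfp939*, 6.79 for *Jmjd7* and 6.82 for *Tug1*. It was at 11.77 for *Prph*, 4.50 for *Ache*, 10.07 for *Phox2a* and 6.36 for *Cbln4*.

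In the 10 *MYCN* tumors, whose backgrounds are not listed, *Tug1* ran from 4.32 to 7.30 with a median of 4.44, and *Zfp939* from 2.28 to 6.88 with a median of 2.70. *Ache* was at most 2.21 in all 10, and *Prph* between 1.77 and 3.27.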
